A study of Mus musculus with 8 samples.

Results

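Thalamic marker genes were followed in the brains of mice labelled as lacking (TNF-/-) or carrying (TNF+/+) the gene of the cytokine tumour necrosis factor (TNF). They are 10 genes of the 19938 that the arrays name by a single gene symbol: Tcf7l2, Lef1, Rorb, Slc17a6, Ramp3, Prkcd, Plekhg1, Calb2, Amotl1 and Synpo2. Amotl1, Rorb and Synpo2 were picked from these arrays because their signals stood apart between the groups, so their values are given as a description with no test. The other 7 were named from general knowledge of the region and are tested. Each of the 10 genes has 1 probe set that pairs with its symbol alone.

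The study asked how TNF deficiency affects gene expression in the adult brain. Total RNA from frozen brain lysates of male mice aged 2 to 4 months was hybridised to Affymetrix Mouse Gene 1.0 ST arrays, and 35556 probe sets were read. By their labels 4 arrays hold TNF-/- and 4 hold TNF+/+ brains, all named as biological replicates. The labels give C57BL/6 as the strain of the TNF+/+ mice, while the targeted allele and the strain of the TNF-/- mice are not stated there. Nothing in the labels says more of how the replicates were kept apart, so the p-values measure the spread between these 8 arrays.

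The thalamus is a paired mass of nuclei deep in the forebrain that relays sensory and motor signals to the cortex. Its relay neurons are glutamatergic and load their vesicles through VGLUT2, the product of Slc17a6. Their identity is set in development and kept in the adult by transcription factors that include Tcf7l2 and Lef1, DNA-binding partners of beta-catenin in Wnt signalling. None of the 10 genes is exclusive to the thalamus in a whole-brain lysate: Rorb also marks layer 4 of the neocortex, Lef1 brain endothelium, Tcf7l2 maturing oligodendrocytes and Calb2 interneurons of the olfactory bulb and cortex. In such bulk RNA, fewer cells of a type and less RNA per cell cannot be told apart.

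The arrays were alike in scale, with medians of 5.03 to 5.11 on the log2 scale and pairwise Pearson's r over all probe sets of 0.986 to 0.993. TNF+/+ replicates 3 and 4 stood apart from the other 6 arrays on the first principal component, which carried 24.0% of the variance. Tnf itself went against the labels. It averaged 5.92 ± 0.22 in the arrays labelled TNF-/- and 4.53 ± 0.29 in those labelled TNF+/+ (SD, n = 4 each), and the difference was 1.39 ± 0.16 (SE; limma, adjusted p = 0.0278). Over 16 limma settings the difference stayed between 1.21 and 1.52, but it passed in 7 of them: adjusted p was 0.216 without TNF+/+ replicates 3 and 4, 0.129 with the replicate number as a block and 0.0562 or higher in all single leave-outs except that of TNF+/+ replicate 2. The sources used here do not say where its probe set lies relative to the deleted part. Each direction below is therefore one between arrays as labelled. All signals are log2 values, and each difference is the mean of the arrays labelled TNF-/- minus the mean of those labelled TNF+/+. Levels of different genes are not set against each other, since probes differ in brightness.

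The 3 genes picked from these arrays differ in what they do. Amotl1 encodes angiomotin-like 1, a junction protein that binds YAP of the Hippo pathway; Rorb encodes the nuclear receptor ROR-beta; Synpo2 encodes synaptopodin-2, an actin-binding protein. Their promoters are shown because these are the genes that were chosen for groups that stood apart. The sequences are from RefSeq on GRCm38.p6, each running 5′ to 3′ on the gene's own strand from 250 bases before the start of transcription, with the 50 bases after the start in capitals. The Amotl1 window is chr9:14614951-14615250, that of Rorb is chr19:19111147-19111446 and that of Synpo2 is chr3:123236100-123236399, all on the minus strand.
Amotl1: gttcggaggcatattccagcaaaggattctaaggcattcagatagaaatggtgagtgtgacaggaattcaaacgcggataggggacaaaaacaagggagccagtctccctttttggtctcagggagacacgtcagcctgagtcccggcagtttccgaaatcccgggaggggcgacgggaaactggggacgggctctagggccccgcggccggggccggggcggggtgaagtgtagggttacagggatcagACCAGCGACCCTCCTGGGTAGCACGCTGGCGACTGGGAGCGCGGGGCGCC
Rorb: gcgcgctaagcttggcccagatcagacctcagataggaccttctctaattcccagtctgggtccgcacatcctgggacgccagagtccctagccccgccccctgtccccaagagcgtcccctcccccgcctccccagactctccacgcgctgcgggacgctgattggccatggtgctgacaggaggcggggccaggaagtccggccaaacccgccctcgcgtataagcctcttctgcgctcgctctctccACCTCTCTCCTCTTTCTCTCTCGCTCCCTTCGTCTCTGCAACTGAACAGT
Synpo2: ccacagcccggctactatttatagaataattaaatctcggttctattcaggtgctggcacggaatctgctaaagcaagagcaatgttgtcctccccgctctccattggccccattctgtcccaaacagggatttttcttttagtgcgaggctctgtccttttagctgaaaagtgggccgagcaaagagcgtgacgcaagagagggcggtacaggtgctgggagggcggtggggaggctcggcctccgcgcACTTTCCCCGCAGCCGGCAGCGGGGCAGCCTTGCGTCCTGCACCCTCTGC

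Amotl1 had signals of 6.26, 6.22, 6.17 and 6.20 in the arrays labelled TNF-/-, against 5.81, 6.05, 5.90 and 5.94 in those labelled TNF+/+. The means were 6.21 ± 0.04 and 5.93 ± 0.10 (SD, n = 4 each), a difference of 0.28 or 1.22-fold. The groups did not overlap, and 0.12 separated the lowest TNF-/- array from the highest TNF+/+ array, which was replicate 2.

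Rorb read 8.24, 8.29, 8.41 and 8.35 in the arrays labelled TNF-/-, against 8.07, 8.18, 8.02 and 8.02 in those labelled TNF+/+. Its means were 8.32 ± 0.07 in TNF-/- arrays and 8.07 ± 0.07 in TNF+/+ arrays (SD, n = 4 each), a difference of 0.25 or 1.19-fold. The gap between the groups was 0.06, the smallest of these 3 genes, and TNF+/+ replicate 2 was again the TNF+/+ array nearest to the TNF-/- arrays.

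Synpo2 had signals of 5.75, 5.67, 5.84 and 5.80 in the arrays labelled TNF-/-, against 5.55, 5.53, 5.53 and 5.58 in those labelled TNF+/+. The means, 5.76 ± 0.07 for TNF-/- and 5.55 ± 0.02 for TNF+/+ (SD, n = 4 each), differed by 0.22 or 1.16-fold, with a gap of 0.09. Its TNF+/+ arrays had the smallest SD among these 3 genes. Groups that do not overlap with TNF-/- higher occurred in 4.16% of all genes, and since these 3 were selected on that contrast their separation supports nothing by itself.

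**Figure D1:**
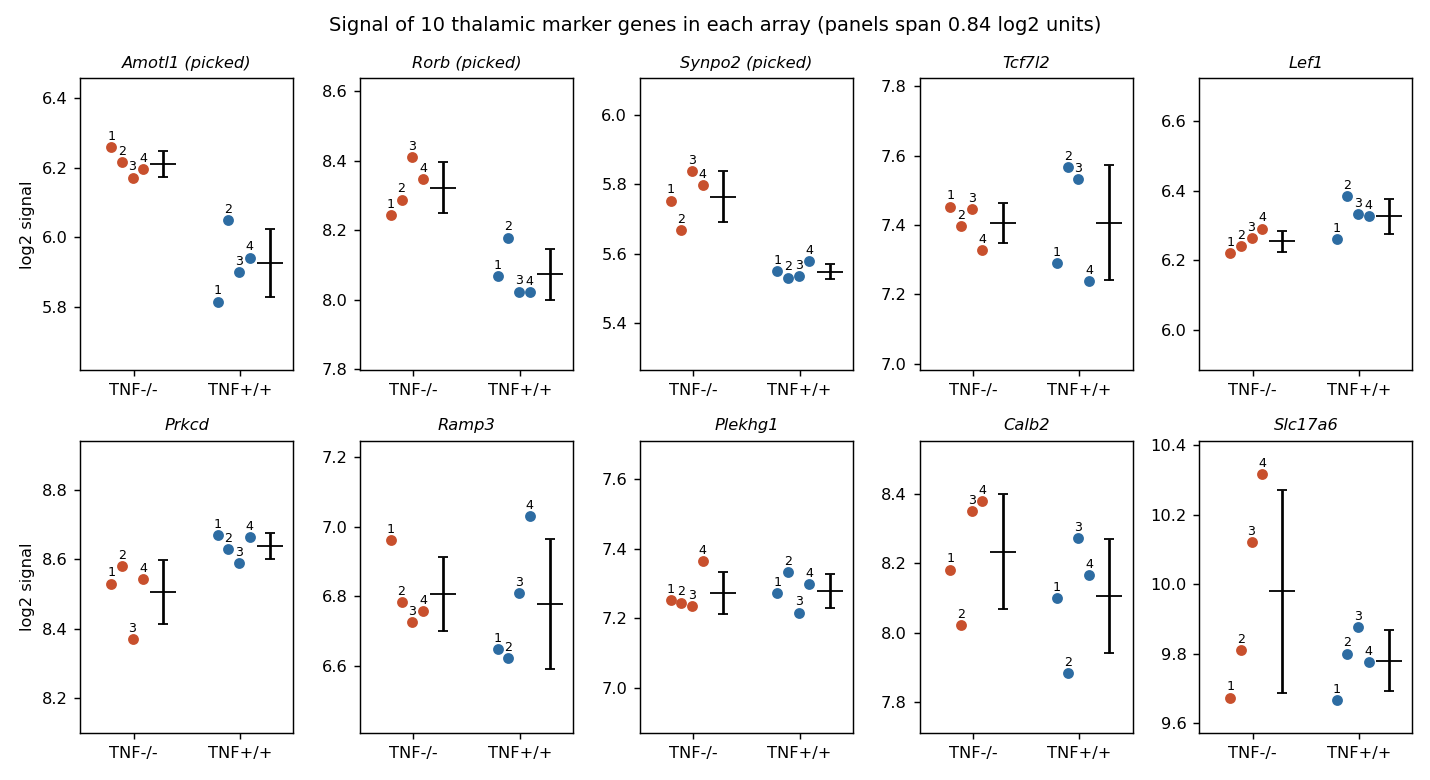
Log2 signal of each thalamic marker gene (vertical axis; every panel spans the same number of log2 units) in the 4 arrays labelled TNF-/- and the 4 labelled TNF+/+. Points are single arrays with their replicate number, and the bar is the mean with its SD. The 3 genes marked as picked, and Prkcd in the opposite direction, have groups that do not overlap.

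None of the 7 genes named from general knowledge passed the test of TNF-/- against TNF+/+ arrays. By limma with Benjamini-Hochberg adjustment over all probe sets 0 of 7 passed, 0 had an unadjusted p under 0.05 and 0 were called by SAM, the permutation method named in the study's design. The background was low: limma called 29 probe sets (0.0816%), 13 higher and 16 lower in TNF-/- arrays, and SAM called 53 (0.149%), while 11.7% of all genes had an unadjusted p under 0.05. Differences of the 7 genes ran from -0.13 for Prkcd to 0.20 for Slc17a6, with 3 above 0 and 4 below. Their median was -0.0010, beside -0.0061 over all genes (9532 higher and 10406 lower). After quantile normalization between arrays 2 were above 0 and 5 below, since Ramp3 changed sign. The median was then -0.04, beside 0.0040 over all genes. Without TNF+/+ replicates 3 and 4 it was -0.02, beside 0.0082 over all genes. The groups did not overlap in 1 of the 7, Prkcd, which was lower in TNF-/- arrays; this pattern occurred in 3.5% of all genes.

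Tcf7l2 encodes the HMG-box factor TCF7L2 (TCF4), which marks neurons of the thalamus and habenula. It read 7.45, 7.40, 7.45 and 7.33 in the arrays labelled TNF-/-, against 7.29, 7.57, 7.53 and 7.24 in those labelled TNF+/+. All TNF-/- arrays lay inside the TNF+/+ range, with TNF+/+ replicates 2 and 3 high and 1 and 4 low. The difference was -0.0010 ± 0.09 (SE; 95% interval -0.20 to 0.19; limma, adjusted p = 0.997), so changes larger than about 0.20 on the log2 scale lie outside the interval.

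Lef1, the related HMG-box factor, had signals of 6.22, 6.24, 6.26 and 6.29 in the arrays labelled TNF-/-, against 6.26, 6.39, 6.33 and 6.33 in those labelled TNF+/+. TNF+/+ replicates 2, 3 and 4 lay above every TNF-/- array and TNF+/+ replicate 1 lay among them. The difference was -0.07 ± 0.05 (SE; 95% interval -0.19 to 0.04; limma, adjusted p = 0.622).

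Slc17a6 encodes VGLUT2, the vesicular glutamate transporter of thalamic, hypothalamic and hindbrain neurons. Its signals were 9.67, 9.81, 10.12 and 10.32 in the arrays labelled TNF-/-, against 9.67, 9.80, 9.88 and 9.78 in those labelled TNF+/+. TNF-/- replicates 3 and 4 were above every TNF+/+ array, while replicates 1 and 2 lay among them. The difference, 0.20 ± 0.14 (SE; 95% interval -0.11 to 0.51; limma, adjusted p = 0.612), was 0.09 without TNF-/- replicate 4 and 0.30 without TNF-/- replicate 1. Slc6a5, the glycine transporter of hindbrain neurons, was also high in TNF-/- replicate 4, at 5.77. It read 3.65, 4.34 and 3.96 in the other TNF-/- arrays and 4.27, 4.56, 4.32 and 3.79 in the TNF+/+ arrays. The other measured hindbrain genes, Hoxa2, Hoxa3, Hoxb3 and Hoxb5, did not have their highest value in that array, and Hoxb5, at 3.51, had its lowest there. Their group means of 3.63 to 3.93 lay far below the array medians of 5.03 to 5.11. They therefore cannot show whether that array held more hindbrain tissue. The part of hindbrain tissue in the Slc17a6 signal was not tested.

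Calb2 encodes the calcium-binding protein calretinin. It read 8.18, 8.02, 8.35 and 8.38 in the arrays labelled TNF-/-, against 8.10, 7.88, 8.27 and 8.16 in those labelled TNF+/+. Replicate 2 was the lowest array in both groups, and the groups overlapped. The difference was 0.13 ± 0.11 (SE; 95% interval -0.12 to 0.37; limma, adjusted p = 0.684). It was 0.05 without TNF+/+ replicate 2, 0.08 without TNF-/- replicate 4 and 0.20 without TNF-/- replicate 2.

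Prkcd encodes protein kinase C-delta, abundant in sensory relay nuclei. It had signals of 8.53, 8.58, 8.37 and 8.54 in the arrays labelled TNF-/-, against 8.67, 8.63, 8.59 and 8.67 in those labelled TNF+/+. Every TNF-/- array was below every TNF+/+ array, but only by 0.0095 at the closest, and TNF-/- replicate 3 was the lowest of the 8. The difference of -0.13 ± 0.06 (SE; 95% interval -0.27 to 0.01; limma, adjusted p = 0.481) did not pass, and it was -0.09 without TNF-/- replicate 3. Its direction as labelled was opposite to that of the 3 picked genes.

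Ramp3 encodes a receptor activity-modifying protein, a partner of the calcitonin and calcitonin-like receptors. It read 6.96, 6.78, 6.73 and 6.76 in the arrays labelled TNF-/-, against 6.65, 6.62, 6.81 and 7.03 in those labelled TNF+/+. The highest and the lowest array were both TNF+/+, and the difference was 0.03 ± 0.10 (SE; 95% interval -0.20 to 0.26; limma, adjusted p = 0.933). It was 0.11 without TNF+/+ replicate 4 and 0.17 without TNF+/+ replicates 3 and 4, the arrays that stood apart.

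Plekhg1, which encodes a guanine nucleotide exchange factor, had signals of 7.25, 7.25, 7.24 and 7.36 in the arrays labelled TNF-/-, against 7.27, 7.33, 7.22 and 7.30 in those labelled TNF+/+. It was the steadiest of the 10 genes, spanning 0.15 over the 8 arrays, and TNF-/- replicate 4 was its highest array. The difference was -0.01 ± 0.05 (SE; 95% interval -0.13 to 0.12; limma, adjusted p = 0.978).

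**Figure D2:**
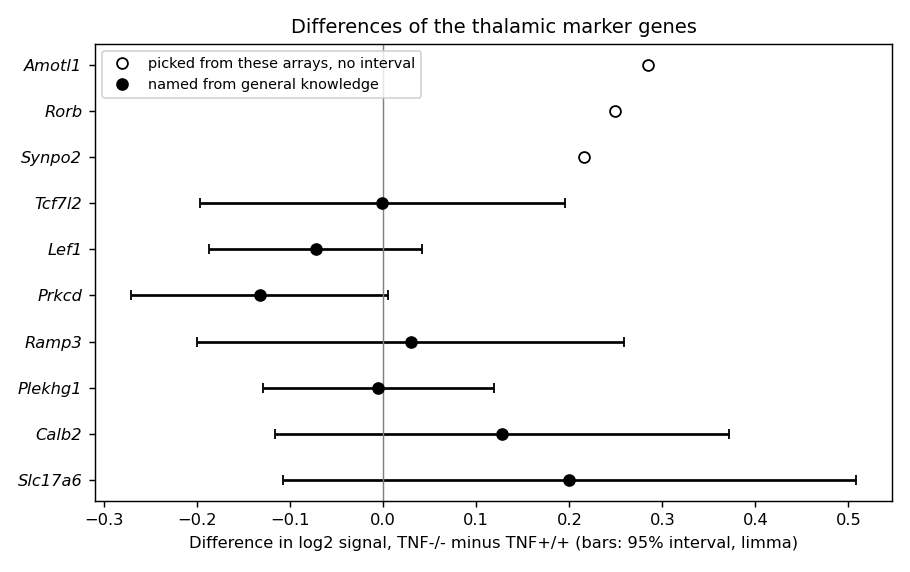
Difference in log2 signal between arrays labelled TNF-/- and TNF+/+ (horizontal axis) for each thalamic marker gene. Open points are the 3 genes picked from these arrays, shown with no interval, and filled points are the other 7 with limma's 95% interval. All 7 intervals include 0, and that of Prkcd reaches 0.01 on its upper side.

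No pair of the 7 genes passed a test of varying together from array to array. Over their 21 pairs across the 8 arrays, Pearson's r had a median of -0.12 and was positive in 9 pairs. By an exact two-sided permutation test over 40320 pairings, 0 of 21 pairs had an unadjusted p under 0.05 for Pearson's r or passed after Benjamini-Hochberg adjustment. Calb2 and Slc17a6 had the highest value, r = 0.68 and Spearman's rho = 0.62 (exact permutation p = 0.0635 and 0.115, adjusted p = 0.833 and 0.882), and r was 0.72 without the 2 arrays farthest from the median. Prkcd and Calb2 had the lowest, r = -0.59 and rho = -0.60 (exact permutation p = 0.126 and 0.132). For the factors Tcf7l2 and Lef1, r was 0.31 and rho 0.29 (exact permutation p = 0.452 and 0.501).

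After the group means were taken out, 8 of the 21 pairs had a positive r and the median was -0.10. The same measure, given without a test, was 0.19 between Amotl1 and Rorb, -0.25 between Amotl1 and Synpo2 and 0.38 between Rorb and Synpo2. Pairs of a picked gene with one of the 7 ran from -0.75 for Rorb with Ramp3 to 0.71 for Synpo2 with Calb2. Over all 45 pairs 24 were positive. The points share the array, and each gene contributes to several pairs.

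**Figure D3:**
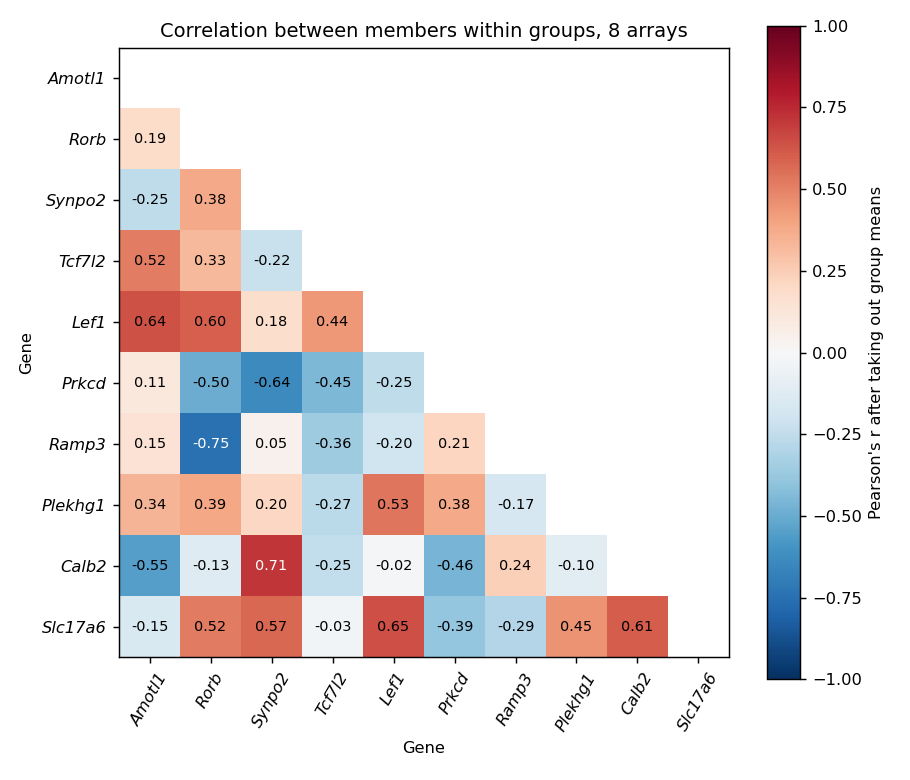
Pearson's r between each pair of thalamic marker genes over 8 arrays after the mean of each group was taken out. Red cells are positive and blue cells negative. Both signs occur throughout, from -0.75 for Rorb with Ramp3 to 0.71 for Synpo2 with Calb2.

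The mean of the 7 genes, each centred on its own mean over the arrays, was -0.02, -0.04, 0.02 and 0.08 in the arrays labelled TNF-/-, against -0.07, -0.02, 0.03 and 0.02 in those labelled TNF+/+. The groups overlapped on this scale of differences. It followed Slc17a6 (r = 0.81) and Calb2 (r = 0.75), the genes with the widest spread, and not Tcf7l2 (r = -0.02) or Prkcd (r = -0.36), so it does not stand for the 7 genes alike. Among 9959 genes of at least median signal, the 10 closest to this mean across the 8 arrays were 1110032A03Rik (r = 0.99), Fbxl2 (r = 0.978), Lrp12 (r = 0.969), Uchl1 (r = 0.957), Sdr39u1 (r = 0.949), Snapc5 (r = 0.949), Alg2 (r = 0.941), Chrna7 (r = 0.941), Mrps18b (r = 0.936) and Pstk (r = 0.935). Of these 9959 genes 283 had r above 0.8. How many would reach it by chance over 8 arrays was not tested, so a place among the closest 10 is not taken as a link.

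Genes of the thalamus beyond these 10 were read from a list of 16, all measured. They need not be exclusive to the thalamus in a whole-brain lysate. Zic1 was 8.57 in TNF+/+ replicate 1, the array where cerebellum genes were high, against 7.92 to 8.34 in all other arrays. The part of other regions in the list was not tested. None passed: 0 of 16 were called by limma and 0 by SAM, 11 were above 0 and 5 below, and the median difference was 0.11 with a range of -0.06 to 0.25. The median was 0.08 after quantile normalization and 0.06 without TNF+/+ replicates 3 and 4, where 9 were above 0 and 7 below. Unadjusted p-values under 0.05 belonged to 4 of them, Necab1, Adarb1, Ntng1 and Rora, beside 11.7% of all genes. The groups of the first 3 did not overlap, with TNF-/- higher, a pattern that occurred in 4.16% of all genes.

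Necab1, a neuronal calcium-binding protein, read 9.47, 9.52, 9.65 and 9.58 in the arrays labelled TNF-/-, against 9.33, 9.21, 9.34 and 9.43 in those labelled TNF+/+; the difference was 0.23 ± 0.07 (SE; limma, adjusted p = 0.313). Adarb1, the RNA-editing enzyme ADAR2, read 8.98, 8.90, 8.93 and 8.81 in the arrays labelled TNF-/-, against 8.68, 8.74, 8.63 and 8.77 in those labelled TNF+/+; the difference was 0.20 ± 0.06 (SE; limma, adjusted p = 0.324). Ntng1, the axon guidance protein netrin-G1 of thalamocortical axons, read 8.39, 8.44, 8.41 and 8.49 in the arrays labelled TNF-/-, against 8.34, 8.31, 8.31 and 8.18 in those labelled TNF+/+; the difference was 0.15 ± 0.06 (SE; limma, adjusted p = 0.412). In these 3 genes every TNF-/- array was above every TNF+/+ array, but none held after adjustment.

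Rora, the nuclear receptor paralog of Rorb, read 8.08, 8.23, 8.20 and 8.18 in the arrays labelled TNF-/-, against 8.09, 8.09, 7.96 and 8.01 in those labelled TNF+/+. Only TNF-/- replicate 1 lay among the TNF+/+ arrays, and the difference was 0.14 ± 0.06 (SE; limma, adjusted p = 0.457). Shox2, a homeobox gene of thalamic relay neurons, had a difference of 0.25 ± 0.13 (SE), while Gbx2, the homeobox gene that specifies thalamic neurons, had one of -0.01 ± 0.08 (SE; limma, adjusted p = 0.536 and 0.978). Shox2 was 3.84 in TNF+/+ replicate 1, against 4.39, 4.44 and 4.42 in the other TNF+/+ arrays and 4.42 to 4.59 in TNF-/- arrays. Both genes lay below the array medians of 5.03 to 5.11.

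**Figure D4:**
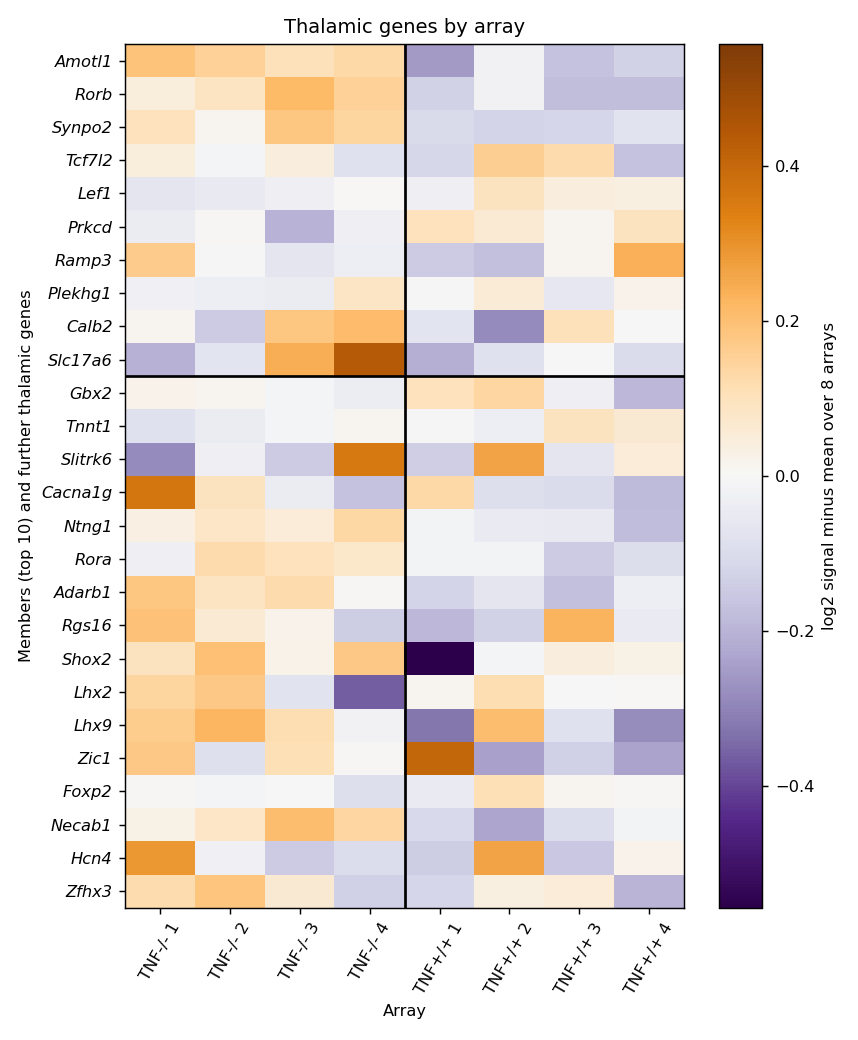
Log2 signal of the 10 thalamic marker genes (above the line) and 16 further thalamic genes (below it) in each array, as the difference from the gene's mean over the 8 arrays. Columns are the arrays labelled TNF-/- on the left and TNF+/+ on the right. The 3 picked genes, Necab1, Adarb1 and Ntng1 are higher in all TNF-/- arrays, and many other rows mix both colours in both groups.

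Neighbouring nuclei gave 0 calls by limma or SAM, and of their genes 1, in the reticular nucleus, had an unadjusted p under 0.05, beside 11.7% of all genes. Of 7 habenula genes 3 were above 0 and 4 below, with a median of -0.01 and a range of -0.05 to 0.05. The reticular thalamic nucleus, the inhibitory shell around the thalamus, had 6 of 7 genes measured, 4 above 0 and 2 below, with a median of 0.08. Its smallest p belonged to Ecel1, a membrane metalloprotease, at 0.24 ± 0.09 (SE; limma, adjusted p = 0.379). Of 8 midbrain genes 5 were above 0 and 3 below, with a median of 0.03. Most habenula and midbrain genes had mean signals below the array medians of 5.03 to 5.11, so differences near 0 do not show that these regions were unchanged. The habenula median was 0.0005 after quantile normalization and 0.0040 without TNF+/+ replicates 3 and 4, and that of the midbrain genes was 0.05 and 0.01.

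Wnt genes that act with Tcf7l2 and Lef1 were also not called. Of 13 measured, 5 were above 0 and 8 below, with a median of -0.02 (0.0043 without TNF+/+ replicates 3 and 4). None passed, and 2 had an unadjusted p under 0.05, beside 11.7% of all genes. Those were Bcl9l, a beta-catenin co-activator, at -0.27 ± 0.09 (SE; limma, adjusted p = 0.372), and Notum, a secreted Wnt inhibitor, at -0.15 ± 0.06 (SE; limma, adjusted p = 0.449). Ctnnb1, which encodes beta-catenin, had a difference of -0.02 ± 0.05 (SE), and Axin2, a feedback target of the pathway, one of 0.10 ± 0.09 (SE; limma, adjusted p = 0.908 and 0.689).

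Family relatives and partners of the 10 genes had 19 of 22 measured, 8 above 0 and 11 below, with a median of -0.03 (0.0043 without TNF+/+ replicates 3 and 4). There were 0 calls and 4 unadjusted p under 0.05, beside 11.7% of all genes. Slc17a7, which encodes VGLUT1, the vesicular glutamate transporter of cortical neurons, read 10.77, 10.73, 10.76 and 10.53 in the arrays labelled TNF-/-, against 10.97, 10.79, 10.88 and 10.91 in those labelled TNF+/+. The groups did not overlap, as in 3.5% of all genes with TNF-/- lower. The difference was -0.19 ± 0.07 (SE; limma, adjusted p = 0.412), while that of its paralog Slc17a6 was positive. The difference of Calcr, the calcitonin receptor, was 0.38 ± 0.13 (SE; limma, adjusted p = 0.361), and that of Ramp1, a paralog of Ramp3, was -0.22 ± 0.08 (SE; limma, adjusted p = 0.41). Amot and Amotl2, relatives of Amotl1, had differences of 0.04 ± 0.08 and 0.10 ± 0.07, and Synpo, the relative of Synpo2, 0.05 ± 0.11 (SE; limma, adjusted p = 0.888, 0.606 and 0.891).

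Markers of other regions and cell types gave 0 calls by limma or SAM, and their part in the signals of the thalamic genes was not tested. Beside the counts that follow, 11.7% of all genes had an unadjusted p under 0.05 by limma. Groups did not overlap in 4.16% of all genes with TNF-/- higher and in 3.5% with TNF-/- lower. Choroid plexus and meningeal genes were above 0 in 7 of 7, of which 4 had an unadjusted p under 0.05, with a median of 0.25 and list means of 7.05 to 7.16 in the arrays labelled TNF-/- against 6.76 to 7.02 in those labelled TNF+/+; Clic6, Kcnj13 and Lum had groups that did not overlap. After quantile normalization 6 of the 7 were above 0. Oligodendrocyte genes were below 0 in 6 of 6, of which 3 had an unadjusted p under 0.05, with a median of -0.30 and list means of 9.20 to 9.31 in TNF-/- arrays against 9.30 to 9.58 in TNF+/+ arrays; Opalin, Mag and Cnp had groups that did not overlap. Without TNF+/+ replicates 3 and 4 this median was -0.16, with 5 of 6 below 0. The 11 cerebellum genes were all below 0 with a median of -0.24. Their mean was 4.97 to 5.02 in TNF-/- arrays, against 6.38 in TNF+/+ replicate 1 and 4.98 to 5.07 in the other TNF+/+ arrays. The difference in this mean thus rests largely on TNF+/+ replicate 1, which the setting without TNF+/+ replicates 3 and 4 keeps. Elsewhere the medians were 0.06 over 11 neocortex genes, 0.05 over 11 hypothalamus genes, 0.0029 over 8 striatum genes, -0.03 over 6 olfactory bulb genes, -0.07 over 10 hippocampus genes and -0.01 over 5 hindbrain genes. They were 0.04 over 8 general neuron genes, -0.0043 over 6 astrocyte genes, -0.08 over 5 endothelium genes and -0.09 over 5 microglia genes. Single genes could lie far from these medians. Cdhr1 of the olfactory bulb list had a difference of 0.96 ± 0.28 with groups that overlapped. Bok of the hippocampus list had one of -0.34 ± 0.09 with groups that did not (SE; limma, adjusted p = 0.313 and 0.286). Without TNF+/+ replicates 3 and 4 the median was 0.05 over the endothelium genes (4 of 5 above 0), 0.06 over the olfactory bulb genes (4 of 6 above 0), 0.0037 over the hindbrain genes and -0.50 over the cerebellum genes. Without these arrays it was 0.11 over the hypothalamus genes, 0.03 over the neocortex genes, 0.06 over the general neuron genes, -0.05 over the astrocyte genes and -0.06 over the microglia genes. After quantile normalization the hindbrain median was 0.03, the striatum median -0.01, the hippocampus median -0.03 and the hypothalamus median 0.09. All 5 hindbrain genes had mean signals below the array medians of 5.03 to 5.11.

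**Figure D5:**
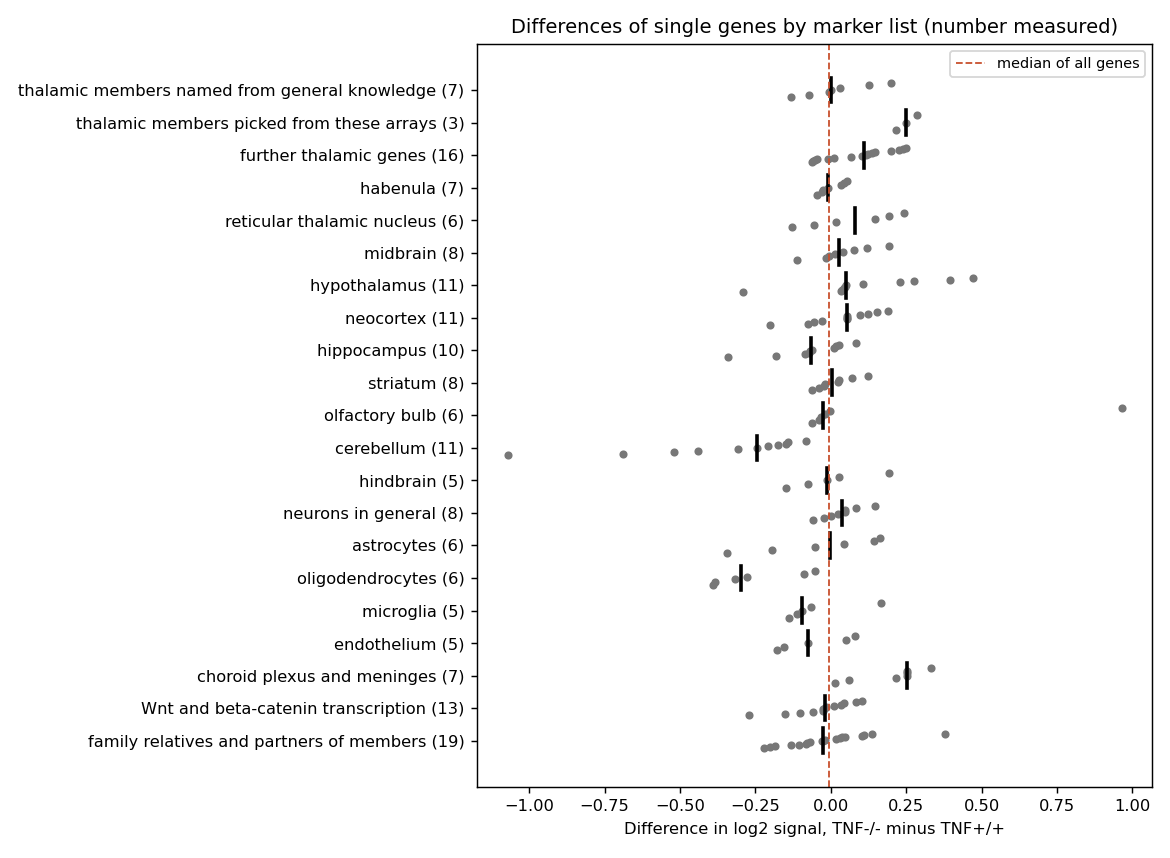
Difference in log2 signal between arrays labelled TNF-/- and TNF+/+ (horizontal axis) for the single genes of each marker list, with the number measured in brackets. Grey points are genes, black bars are the median of each list and the dashed line is the median of all genes. The 7 thalamic genes named from general knowledge have a median of -0.0010 and the 16 further thalamic genes one of 0.11.

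Promoter windows of 300 bases were searched for the letters that TCF and LEF factors are known to favour, CAAAG preceded by a pair of bases each A or T, on either strand. RefSeq holds 16 such windows for 9 of the 10 genes, and 3 held a match, 1 each of Tcf7l2, Lef1 and Prkcd, beside 16.9% of 32851 mouse windows. The matches are shown on the gene's own strand with up to 10 bases on each side and the match in capitals, on GRCm38.p6. The stretches shown span chr19:55895297-55895323 (plus) for Tcf7l2, chr3:131156137-131156163 (plus) for Lef1 and chr14:30610536-30610560 (minus) for Prkcd. The match itself, in capitals, begins 14 bases before a further annotated start in Tcf7l2, where it reads as the motif on the opposite strand. In Lef1 and Prkcd it begins 147 and 242 bases before such a start.
Tcf7l2: aaatatcaggCTTTGTTcttttgattg
Lef1: aacctcagaaTACAAAGtaggattgca
Prkcd: gcaaaatcAACAAAGattcaagagg

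The half-site of ROR receptors such as ROR-beta, AGGTCA on either strand, was in 0 of the 16 windows and in 16.3% of all windows. These matches describe letters only, and their absence says nothing of a factor's binding. None of the 3 promoters of the picked genes printed above held either motif. GC content of the 16 windows ran from 41% to 70%, around a median of 52.7% over all windows.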

How the data were processed

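The deposited table holds the authors' log2 signal of 35556 probe sets in 8 arrays, running from 2.83 to 14.1. GCOS, GCRMA and Partek were used, per the submitters' processing notes, which state no version or role; of the genome build the sources used here say nothing. No further scaling or filter was applied. The platform annotation pairs 21789 probe sets with 1 symbol; the probe set with the highest mean stands for a gene, and 19938 genes were named. No columns were identical.

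TNF-/- and TNF+/+ arrays were set against each other with limma 3.58.1 in R 4.3.3 (genotype as the only term, eBayes, two-sided test, adjusted by Benjamini-Hochberg across the whole table, threshold 0.05), because the values are processed log2 signals. SAM, named in the design text, was run beside it. Errors are limma's moderated SE. Correlations and plots used Python 3.11.15 and matplotlib 3.10.9.

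The genes described and all gene lists were chosen with earlier results of these data known. Named are the 10 genes, Tnf, the 10 genes closest to the mean of 7, and of each list up to 3 genes with the smallest p, plus Rora, Kcnj13, Shox2, Gbx2, Ctnnb1, Axin2, Slc6a5, Amot, Amotl2 and Synpo, which were added after their values were seen. Precision is limited by having 4 arrays per group. Alternatives were quantile normalization, filters, a variance trend, array weights, a replicate block, SAM, and leaving out arrays; the list medians under quantile normalization and without TNF+/+ replicates 3 and 4, and Tnf under each limma setting, were added after seeing the data.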

Additional observations from a re-analysis of the deposited data

Results flagged for a closer look

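In groups of 4 arrays, a highest or lowest array was set apart when its gap to the nearest other, divided by the range of the group, was above Dixon's 95% critical value. This occurred in 7 of 62 groups examined, where chance gives about 1 in 20. Among the thalamic marker genes it occurred once: Plekhg1 was 7.36 in TNF-/- replicate 4 and 7.24 to 7.25 in the other 3 TNF-/- arrays. The mean of the reticular thalamic nucleus genes was 7.95 in TNF+/+ replicate 4 and 7.75 to 7.78 in the other TNF+/+ arrays. That of the hippocampus genes was 5.26 in TNF-/- replicate 4 and 5.31 to 5.32 in the other TNF-/- arrays. Cerebellum genes averaged 6.38 in TNF+/+ replicate 1 and 4.98 to 5.07 in the other TNF+/+ arrays. Astrocyte genes averaged 9.55 in TNF-/- replicate 3 and 9.34 to 9.36 in the other TNF-/- arrays, and 9.53 in TNF+/+ replicate 4 and 9.40 to 9.42 in the other TNF+/+ arrays. Oligodendrocyte genes averaged 9.31 in TNF-/- replicate 4 and 9.20 to 9.21 in the other TNF-/- arrays.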

How the results depend on the processing

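None of the 7 tested thalamic genes and none of the 16 further ones was called by limma under any alternative run or by SAM. At most 1 of the 7 and 5 of the 16 had an unadjusted p under 0.05. Of the 16 it was 4 in the main fit and 2 after quantile normalization. It was also 2 without TNF-/- replicate 2, TNF-/- replicate 4 or TNF+/+ replicate 4. No pair of the 7 passed the correlation test under quantile normalization, without the group means or with an array left out. The count of probe sets called, 29, was 63 among probe sets with 1 symbol, 53 by SAM, 0 without TNF+/+ replicates 3 and 4 (3566 at an unadjusted p under 0.05) and 1 to 20 with 1 array left out, the lowest being without TNF+/+ replicate 3. With the replicate number as a replicate block it was 0 (4025 at an unadjusted p under 0.05), and it was 27 to 31 otherwise. Whether the shared replicate numbers pair the arrays is not stated in the labels, and the main fit took no pairing into account. Deviations of same-numbered arrays correlated at 0.07 to 0.11. In the other group, 6 of 8 arrays correlated best with the array of their own number, a hint of pairing from the data only. The block changed no call among the thalamic genes, but with it Tnf no longer passed (adjusted p = 0.129). Signs reversed where differences were near 0. With 1 array left out, Tcf7l2 ran from -0.0573 to 0.0521, Ramp3 from -0.0224 to 0.114 and Plekhg1 from -0.0355 to 0.0121, and Ramp3 was -0.0112 after quantile normalization. The other 4 tested genes and the 3 picked genes kept their sign in all 14 alternatives: Prkcd lay between -0.16 and -0.09, Lef1 between -0.11 and -0.05, Slc17a6 between 0.09 and 0.30, Calb2 between 0.05 and 0.24, Amotl1 between 0.25 and 0.33, Rorb between 0.20 and 0.28 and Synpo2 between 0.18 and 0.25. Groups of the 3 picked genes and of Prkcd did not overlap, so leaving out arrays could not reverse their sign. That their sign was kept therefore supports nothing by itself. The cause of the shifts between settings was not tested.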

Other observations

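Hypothalamic genes, which share Slc17a6 with the thalamus, were above 0 in 10 of 11, with a median difference of 0.05 and 0 calls by limma. The median was 0.09 after quantile normalization, and without TNF+/+ replicates 3 and 4 it was 0.11 with 8 of 11 above 0. Pomc, Avp, Sim1, Nkx2-1, Hmx2 and Hdc had mean signals below the array medians of 5.03 to 5.11 in both groups. Hdc, the histamine-synthesising enzyme of tuberomammillary neurons, read 4.62, 4.66, 4.92 and 5.05 in the arrays labelled TNF-/-, against 4.22, 4.35, 4.39 and 4.42 in those labelled TNF+/+. The groups did not overlap, as in 4.16% of all genes with TNF-/- higher, and the difference was 0.47 ± 0.10 (SE; limma, adjusted p = 0.222). Otp, a homeobox gene of hypothalamic neurons, read 5.62, 5.56, 5.60 and 5.66 in the arrays labelled TNF-/-, against 5.81, 5.95, 5.95 and 5.89 in those labelled TNF+/+; the difference was -0.29 ± 0.05 (SE; limma, adjusted p = 0.151).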
